A study of Drosophila melanogaster with 18 samples.

Results

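The brains of *tud* mutant *Drosophila melanogaster* females were compared with brains of control females by RNA-seq, with 3 libraries for each genotype. These 6 libraries are part of a series of 18 libraries in 6 groups, which also holds male brains and ovaries of the same genotypes. The mutant flies carried a chromosome with *tud*1, *bw* and *sp* opposite the deficiency Df(2R)Pu rP133, which removes part of the right arm of the second chromosome. The control flies had the same *tud*1 chromosome opposite the balancer *CyO*, with an insertion of *hid* under a heat shock promoter and the marker *w*+. All flies were *y*, *w* on the X chromosome. The controls were thus heterozygous for *tud*, although the labels call them wild-type, and the mutants also lacked 1 copy of the genes under the deficiency. Flies were young adults, brains were dissected by hand and those of several flies were pooled in each library.

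*tud* encodes Tudor, the founding member of the Tudor domain proteins, which bind methylated arginines of PIWI proteins and act as scaffolds. In the germline Tudor is needed for germ granules, the RNA and protein assemblies in which piRNA factors are concentrated and from which germ cells are specified. Its best known role is therefore outside the brain, and the comparison asked which genes had other RNA levels in the adult female brain when Tudor was missing.

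Levels are given as FPKM (fragments per length of transcript and per number of mapped fragments), as the authors deposited them. How they scaled libraries against each other is not given in the sources used here. Differences are mutant minus control on the scale of log2(FPKM + 1), which understates the change of genes with a low level. Of 17288 genes in the table, 10611 had a mean of at least 1 FPKM over the 6 libraries and were tested with limma. Genes were called differentially expressed (DE) when the p adjusted by Benjamini-Hochberg was at most 0.05. Read depth, estimated from the smallest FPKM steps, was 4710000 to 13340000 fragments per female brain library. The FPKM of these libraries summed to between 987099 and 2557340, and genes with transcripts under 300 nucleotides took 36.0% to 56.6% of it. *tud* mutant female brain replicate 2 had both the lowest sum and the lowest share. Its correlation with the other 5 libraries, taken across genes, which are no independent replicates, had a median of 0.899, against 0.929 to 0.951 for the others. The median of a gene list that changed sign or moved by over 1.5 times without this library is given below with and without it.

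The targeted gene *tud* (FBgn0003891, 2R, 21183322 to 21192913 in dm6) had 31.4, 26.0 and 23.9 FPKM in the control libraries and 15.3, 32.3 and 14.1 FPKM in the mutant libraries. Mutant replicates 1 and 3 were below every control, while mutant replicate 2 was above all of them. The difference of −0.47 (standard error 0.32) did not pass the threshold (limma, adjusted p = 0.415). *tud*1 is described as a protein null, and an RNA level need not report the loss of a protein. The X-linked *w*, which encodes an ABC transporter of eye pigment precursors and for which the genotypes give an intact copy to the control flies only, on the balancer, stood at 2.51, 2.35 and 3.43 FPKM in the controls and at 0.337, 0.205 and 0.205 FPKM in the mutants. All 3 mutant libraries, replicate 2 included, were below all controls for *w*, with a difference of −1.58 (standard error 0.23, adjusted p = 0.0789). Male brains had 3.08, 4.66 and 4.26 FPKM in the controls and 0.309, 0.101 and 0.701 FPKM in the mutants, with the same order. In the ovaries the order of *w* was the reverse, at 0.328 ± 0.0628 FPKM (SD, n = 3) in the control and 3.12 ± 0.105 FPKM (SD, n = 3) in the mutant libraries (1.63, adjusted p = 0.00111), and the reason was not tested. *hid*, the cell death gene that the balancer transgene carries, was at 6.05, 3.35 and 2.64 FPKM in the controls and at 4.80, 3.54 and 4.18 FPKM in the mutants, and the groups overlapped.

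In female brains 18 genes were DE, which is 0.17% of the genes tested, with 9 upregulated and 9 downregulated (0.0848% each). At an unadjusted p under 0.05 there were 2266 genes (21.4%). For all 18 DE genes the 3 mutant libraries lay on one side of the 3 control libraries, which was the case for 31.9% of all genes tested. Of the 18 genes, 10 encode proteins, 7 have transcripts under 300 nucleotides and 1 identifier, FBgn0028904, carries no annotation. The median difference over all genes tested was 0.02. Without mutant replicate 2 the number of DE genes was 51, and all 18 were among them. Without control replicate 1 or control replicate 2 it was 11, with 10 and 9 of the 18 among them.

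**Figure D1:**
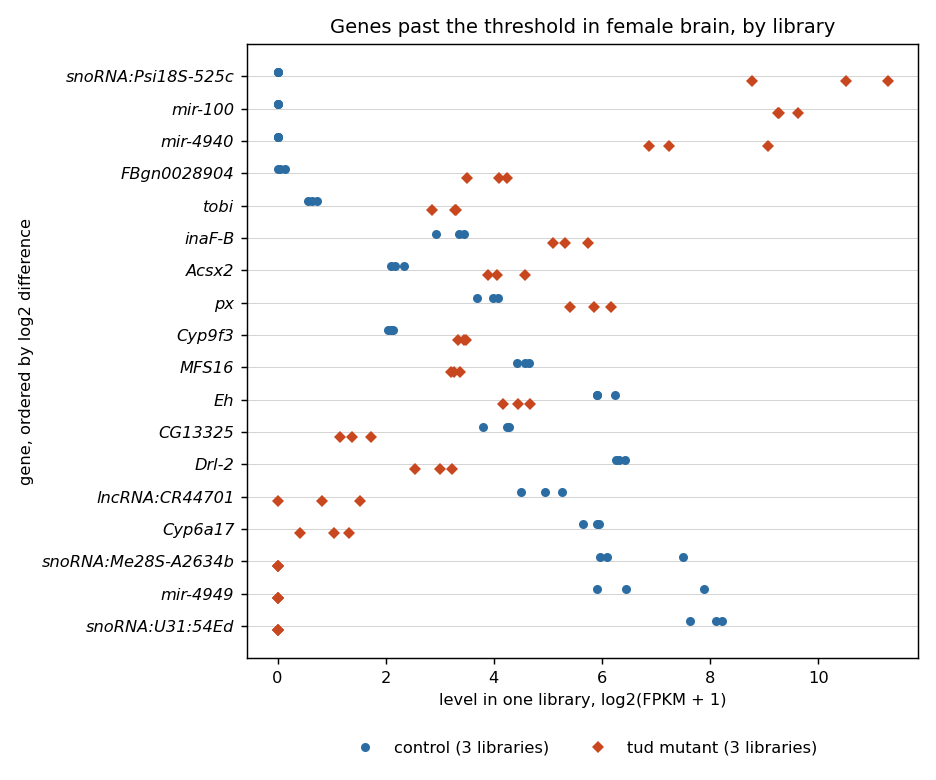
Levels of the 18 DE genes in each female brain library. The x axis is log2(FPKM + 1), each circle is a control library and each diamond a *tud* mutant library, and the genes are ordered by their difference. For every gene the 3 diamonds lie on one side of the 3 circles, and 6 short RNA genes sit at 0 in all libraries of a genotype.

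Among downregulated protein-coding genes, the largest difference was that of *Cyp6a17* (FBgn0015714, 2R, 14873953 to 14875739), a cytochrome P450 known for its role in the temperature preference of flies. Control brains had 49.4, 60.6 and 59.3 FPKM and mutant brains 1.48, 0.328 and 1.06 FPKM. The transcript was thus almost missing from every mutant library, with a difference of −4.92 (standard error 0.25, adjusted p = 0.00101). *Drl-2* (FBgn0033791, 2R, 13055246 to 13079539), a Wnt receptor of the Derailed family that acts in axon guidance, was at 78.2, 85.0 and 75.3 FPKM in the controls and at 7.03, 8.33 and 4.78 FPKM in the mutants. Its difference was −3.41 (standard error 0.20, adjusted p = 0.00156). The gene *CG13325*, which starts 31.2 kb beyond the end of *Drl-2*, was at 17.9, 18.4 and 12.99 FPKM in the controls and at 1.60, 2.30 and 1.23 FPKM in the mutants, a difference of −2.69 (standard error 0.22, adjusted p = 0.00662). These neighbours were low in the same 3 libraries.

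*Eh*, which encodes the neuropeptide eclosion hormone, was at 59.3, 74.9 and 58.6 FPKM in the controls and at 24.3, 16.9 and 20.9 FPKM in the mutants (−1.59, standard error 0.19, adjusted p = 0.0454). The highest mutant library was well below the lowest control. *MFS16*, a transporter of the major facilitator superfamily, was at 20.5, 24.1 and 22.7 FPKM in the controls and at 8.59, 8.28 and 9.30 FPKM in the mutants (−1.27, standard error 0.14, adjusted p = 0.0312), with little spread within either genotype. *lncRNA:CR44701*, a transcript of 294 nucleotides, was at 37.1, 29.9 and 21.6 FPKM in the controls and at 1.89, 0.765 and 0 FPKM in the mutants (−4.12, standard error 0.40, adjusted p = 0.0182).

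Of the upregulated protein-coding genes, *tobi* (FBgn0261575, 3R, 25344761 to 25346921) had the largest difference. It encodes an α-glucosidase that responds to insulin-like peptides and adipokinetic hormone. Its level was 0.660, 0.553 and 0.477 FPKM in the controls and 8.77, 6.22 and 8.79 FPKM in the mutants, a difference of 2.50 (standard error 0.21, adjusted p = 0.00662). *inaF-B*, whose protein is a partner of the photoreceptor channel TRP, rose from 9.28, 6.59 and 9.89 FPKM to 52.7, 33.3 and 38.6 FPKM (2.14, standard error 0.23, adjusted p = 0.0295). *px* (plexus), known for its role in wing vein patterning, rose from 15.8, 11.96 and 14.9 FPKM to 71.1, 41.3 and 56.9 FPKM (1.89, standard error 0.23, adjusted p = 0.0475). In each of these genes the lowest mutant library was far above the highest control.

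*Acsx2*, a member of the acyl-CoA synthetase family, was at 3.26, 4.08 and 3.48 FPKM in the controls and at 15.7, 13.8 and 22.7 FPKM in the mutants (1.97, standard error 0.21, adjusted p = 0.0295). *Cyp9f3*, another cytochrome P450 gene, was at 3.42, 3.28 and 3.10 FPKM in the controls and at 9.08, 9.84 and 10.2 FPKM in the mutants (1.33, standard error 0.15, adjusted p = 0.0316). Its libraries hardly varied within a genotype. FBgn0028904 was at 0, 0.0360 and 0.0961 FPKM in the controls and at 17.96, 10.3 and 16.0 FPKM in the mutants (3.88, standard error 0.24, adjusted p = 0.00156).

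The other 6 DE genes encode short RNAs and were listed at 0 in every library of 1 genotype. *mir-100* (FBgn0262463, 2L, 18471434 to 18471533), a microRNA gene of the *let-7* complex, was at 0 in the 3 controls and at 609, 618 and 785 FPKM in the mutants (9.38, standard error 0.15, adjusted p = 1.29e-06). The primary transcript of that complex, *lncRNA:let7C*, was at 13.8, 13.8 and 8.50 FPKM in the controls and at 28.7, 18.3 and 23.1 FPKM in the mutants, with a difference of 0.91 that did not pass the threshold (adjusted p = 0.17). *mir-125*, another microRNA gene of the complex, was listed at 0 in all 6 libraries. Within this complex the listed value of *mir-100* thus differed far more than that of its host transcript. A listed 0 need not mean that an RNA was absent, which was not tested. At 0 in all 6 libraries were also 54 snoRNA and 9 snRNA genes. In male brain *mir-100* was likewise at 0 in the 3 controls and at 547, 711 and 546 FPKM in the mutants.

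*snoRNA:Psi18S-525c*, whose name marks it as a guide for a pseudouridine of 18S rRNA, was at 0 in the controls and at 2494, 438 and 1451 FPKM in the mutants (10.19, adjusted p = 0.00151). *mir-4940* was at 0 in the controls and at 150, 535 and 116 FPKM in the mutants (7.72, adjusted p = 0.00266). The reverse pattern was seen for *snoRNA:U31:54Ed*, at 197, 298 and 275 FPKM in the controls and 0 in the mutants (−7.99, adjusted p = 7.26e-06). *snoRNA:Me28S-A2634b* was at 179, 66.8 and 61.6 FPKM and *mir-4949* at 58.7, 235 and 85.6 FPKM in the controls, and both were at 0 in the mutants. Over all genes tested, 4 were at 0 in every control and above 0 in every mutant, and 3 were at 0 in every mutant and above 0 in every control. Of these 7 only *Nplp4*, among the 4, is longer than 300 nucleotides. After rRNA depletion the authors put the RNA through a size selection against tRNA and a small rRNA. The part of that step in the values of short RNAs was not tested. With all genes of small RNAs left out, 12 genes were DE.

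Of the 18 DE genes 9 lie on the second chromosome, which holds 38.6% of the genes tested. Of these, 6 are downregulated. On this chromosome the controls carried *CyO* and the mutants the deficiency, so loss of Tudor and the other differences between these chromosomes cannot be told apart.

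The male brain libraries, which the female comparison did not use, gave values for 17 of the 18 genes. Of these, 16 differed in the same direction in males, and for 14 the male groups also did not overlap in that direction. In males 35.5% of all genes had groups that did not overlap, counted in either direction. The share of all genes with the same direction in both sexes was not counted. Of the 17 genes 11 were DE in the male comparison, in which 31 genes (0.291%) were DE in all. *Cyp6a17* averaged 53.1 FPKM in control males and 0.655 FPKM in mutant males (−4.996, adjusted p = 0.000542). *Drl-2* averaged 97.9 and 7.68 FPKM (−3.48, adjusted p = 0.00228) and *px* 17.7 and 74.3 FPKM (1.97, adjusted p = 0.0459). The male difference of *tobi* was 1.26, with means of 0.415 and 2.49 FPKM, and did not pass the threshold (adjusted p = 0.171). The female minus male difference of *tobi* was 1.24 and did not pass the threshold either (adjusted p = 1.00). The gene with the opposite direction was *snoRNA:Me28S-A2634b*, with a male difference of 2.12 (adjusted p = 0.421). Across all genes, the female and male differences were themselves different for 2 of 10689 genes (0.0187%), and for 137 (1.28%) at an unadjusted p under 0.05. With small RNAs left out no gene passed.

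**Figure D2:**
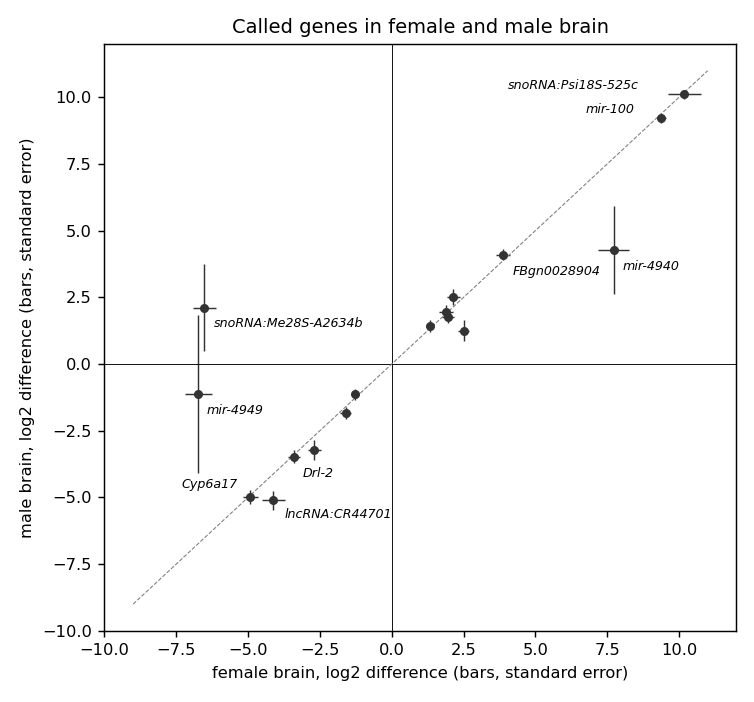
Differences of the DE genes of female brain in female brain (x axis) and male brain (y axis), both as mutant minus control on the log2(FPKM + 1) scale with standard errors as bars, for the 17 genes with a male value. The dashed line marks equal differences, and the genes away from it with wide male bars are the short RNA genes *mir-4940*, *mir-4949* and *snoRNA:Me28S-A2634b*.

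In the ovary 10 of the 18 genes were tested and 4 were DE, where 338 genes (4.09%) were DE in all. *Cyp6a17* averaged 10.7 FPKM in control and 0.473 FPKM in mutant ovaries (−2.98, adjusted p = 0.00012), and *lncRNA:CR44701* averaged 27.9 and 0.131 FPKM (−4.69, adjusted p = 2.45e-05). *MFS16* fell by 1.09 (adjusted p = 0.000782) and *snoRNA:Psi18S-525c* rose by 5.91 (adjusted p = 0.0035) in the ovary. The genes *Drl-2*, *CG13325*, *Eh*, *inaF-B* and *Acsx2* were below 0.1 FPKM in the ovary libraries on average and were not tested there.

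Of 8 genes listed because the study discusses them or their proteins, or, for *aub*, as a further PIWI protein gene, 7 were tested and *tobi* was DE. *Nplp4*, a neuropeptide-like precursor gene, was listed at 0 in the 3 controls and at 3.76, 1.24 and 3.53 FPKM in the mutants, and its difference of 1.86 did not pass the threshold (adjusted p = 0.13), although without mutant replicate 2 it was 2.22 and passed. The PIWI protein gene *piwi* was at 0.874, 0.611 and 0.474 FPKM in the controls and at 2.59, 3.15 and 2.11 FPKM in the mutants (1.13, adjusted p = 0.147). *AGO3* was at 2.89, 2.40 and 1.16 FPKM and then at 6.93, 3.31 and 4.66 FPKM (0.92, adjusted p = 0.193), and for *aub* the groups overlapped (0.44, adjusted p = 0.343). The RNA levels of these PIWI protein genes were low in the brain, while their ovary RNA levels exceeded 80 FPKM in every group mean.

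The polar granule component gene *pgc*, a germ plasm RNA, was at 9.28, 8.27 and 9.56 FPKM in the controls and at 4.31, 1.09 and 3.05 FPKM in the mutants (−1.49, adjusted p = 0.161). *repo*, the glial homeobox gene, was at 49.0, 58.0 and 62.3 FPKM against 47.6, 42.9 and 51.1 FPKM, with overlapping groups (−0.25, adjusted p = 0.395). The neuroblast gene *dpn* was below the filter, at 0.0526, 0.115 and 0 FPKM in the controls and at 0.0989, 0.160 and 0.540 FPKM in the mutants. With 3 libraries a group the exact permutation test cannot go below 0.1, which was its two-sided p for *piwi*, *AGO3*, *pgc*, *Nplp4* and *tobi*.

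A run of neighbouring genes around *tud* was lower in mutant brains. It reached from *ktub* to *CG33655* (2R, 21101928 to 21320017, 218 kb), with limits that were chosen after the values were seen. Of 45 genes in the run 34 were tested, of which 32 had a lower level in the mutants, against 48.4% of all genes tested. The groups did not overlap for 25 of them, all lower, against 15.4% of all genes tested. The median difference was −0.90, which is 1.87-fold, and the quartiles were −1.25 and −0.59. By library, the median against the control mean was −0.93, −0.97 and −0.91 in mutant replicates 1 to 3, so that replicate 2, which differs from the others elsewhere, was close to them here. Only *MFS16* passed the threshold.

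**Figure D3:**
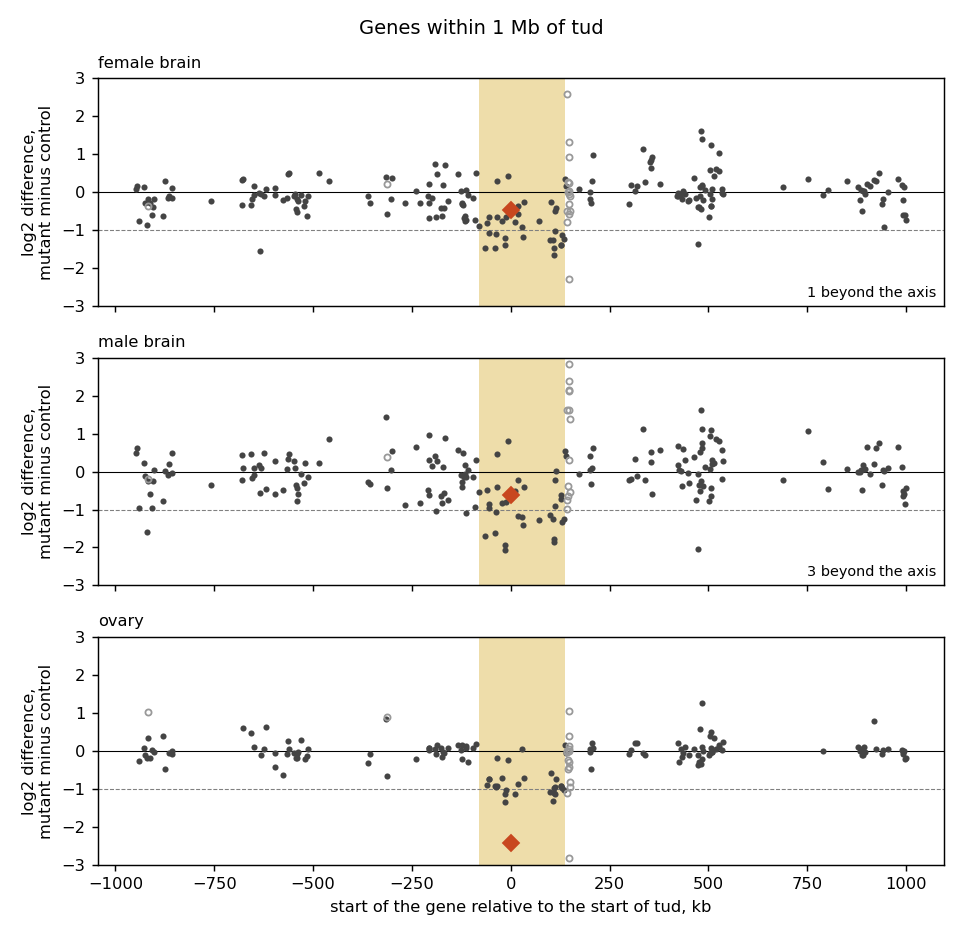
Difference between *tud* mutants and controls on the log2(FPKM + 1) scale for genes within 1 Mb of *tud* in female brain, male brain and ovary. The x axis is the distance of each gene's start from that of *tud*, filled points are genes, open points are genes of small RNAs, the red diamond is *tud*, the dashed line marks −1, and 1 gene in female and 3 in male brain lie beyond the axis. In the shaded run of 218 kb most genes lie between 0 and −1.5 in all 3 tissues, with medians of −0.90, −0.90 and −0.93.

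The gene with the highest level in the run, *RpL29*, which encodes a protein of the large ribosomal subunit, was at 11081, 11741 and 11534 FPKM in the controls and at 5799, 1849 and 4400 FPKM in the mutants (−1.66, adjusted p = 0.178). *Xbp1*, the transcription factor of the unfolded protein response, was at 226, 227 and 235 FPKM in the controls and at 90.7, 62.6 and 95.5 FPKM in the mutants (−1.48, adjusted p = 0.0677). *mago*, a core subunit of the exon junction complex, was at 43.9, 43.5 and 41.1 FPKM and then at 22.1, 16.4 and 21.99 FPKM (−1.06, adjusted p = 0.0956). Each of these genes was lower in every mutant library without passing the threshold.

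*Panx*, which encodes a factor for transcriptional silencing guided by piRNAs, was at 9.52, 13.3 and 9.07 FPKM in the controls and at 2.34, 4.73 and 3.33 FPKM in the mutants (−1.40, adjusted p = 0.126). *Sgf29*, a subunit of the SAGA complex, had a difference of −1.46 (adjusted p = 0.0658) and *LSm1*, which activates mRNA decapping, of −1.20 (adjusted p = 0.163). The exceptions in the run were *Pu*, the GTP cyclohydrolase gene of pteridine synthesis after which the deficiency is named, with 20.5, 18.2 and 18.5 FPKM in the controls and 30.3, 20.3 and 28.6 FPKM in the mutants (0.43), and *CG15657* (0.28). Their groups overlapped.

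The run was found in the female brain libraries, and libraries that played no part in that gave similar medians. In male brain 33 of its genes were tested, 30 were lower (43% of all genes in males), 26 without overlap of the groups (16%), and the median was −0.90. In the ovary 29 were tested, 28 were lower (49.3% of all genes in the ovary) and 26 were DE, with a median of −0.93, where 1.55% of all genes were DE and lower. *tud* itself had the largest ovarian difference in the run, from 63.8 to 11.1 FPKM (−2.44, adjusted p = 0.000118). The genes outside the run, up to 1 Mb from *tud*, had a median female difference of −0.16 on the left (86 genes) and 0.04 on the right (86 genes). None of 33 genes of the run had a female difference unlike the male one at an unadjusted p under 0.05 (limma interaction). Of all genes 1.28% did, so this count does not set the run apart from other genes. The breakpoints of the deficiency are not given in the sources used here, so whether the run coincides with it was not tested.

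Genes of the fourth chromosome were higher in mutant female brains. This chromosome is small and mostly heterochromatic, and its genes are nevertheless expressed. Of 95 genes tested, 89 were higher, where 51.6% of all genes were, and 63 were higher without overlap of the groups (66.3%), against 16.5% of all genes tested. Of the others, 1 was lower without overlap and none passed the threshold (lowest adjusted p = 0.0658). The median difference was 0.87, a 1.83-fold higher level, with quartiles of 0.60 and 1.23. It was present in each mutant library, at 0.82, 1.19 and 0.74 against the control mean, while the control libraries were at 0.39, 0.05 and −0.43. Control replicate 3 was thus lowest, and without it the median was 0.68.

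*Mitf*, the regulator of lysosomal genes, was at 20.7, 15.3 and 13.5 FPKM in the controls and at 43.1, 55.9 and 46.9 FPKM in the mutants (1.52, standard error 0.20, adjusted p = 0.0658). *Gat*, the GABA transporter of glia, was at 373, 361 and 249 FPKM and then at 484, 551 and 537 FPKM (0.70, adjusted p = 0.185). *gw*, which acts with AGO1 in silencing by microRNAs, was at 99.3, 79.0 and 65.8 FPKM and then at 124, 180 and 118 FPKM (0.78, adjusted p = 0.174). Not every gene of the chromosome shared the shift.

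The 2 genes of the chromosome with the highest levels did not differ beyond their spread. *RpS3A*, of the small ribosomal subunit, averaged 2317 ± 524 FPKM (SD, n = 3) in controls and 2196 ± 614 FPKM (SD, n = 3) in mutants. *ATPsynbeta*, of ATP synthase, averaged 2027 ± 190 FPKM (SD, n = 3) and 1987 ± 185 FPKM (SD, n = 3).

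A smaller shift in the same direction was seen for genes near the centromeres of the other chromosomes. Limits were again chosen after the values were seen, at 22 Mb on 2L and X, 23 Mb on 3L, 6 Mb on 2R and 4 Mb on 3R. Of 191 genes tested in these 5 regions 163 were higher and 85 were higher without overlap (44.5%), with a median difference of 0.53. The median was 0.84 on 3L (35 genes), 0.71 on 3R (9 genes), 0.56 on 2R (78 genes), 0.38 on 2L (30 genes) and 0.21 on X (39 genes). It was 0.01 for the other 10092 genes of the arms, of which 15.6% were higher without overlap. *Snap25*, the SNARE protein gene of synaptic vesicle fusion, lies in the 3L region and was at 144, 79.6 and 64.7 FPKM in the controls and at 279, 623 and 206 FPKM in the mutants (1.85, adjusted p = 0.163).

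**Figure D4:**
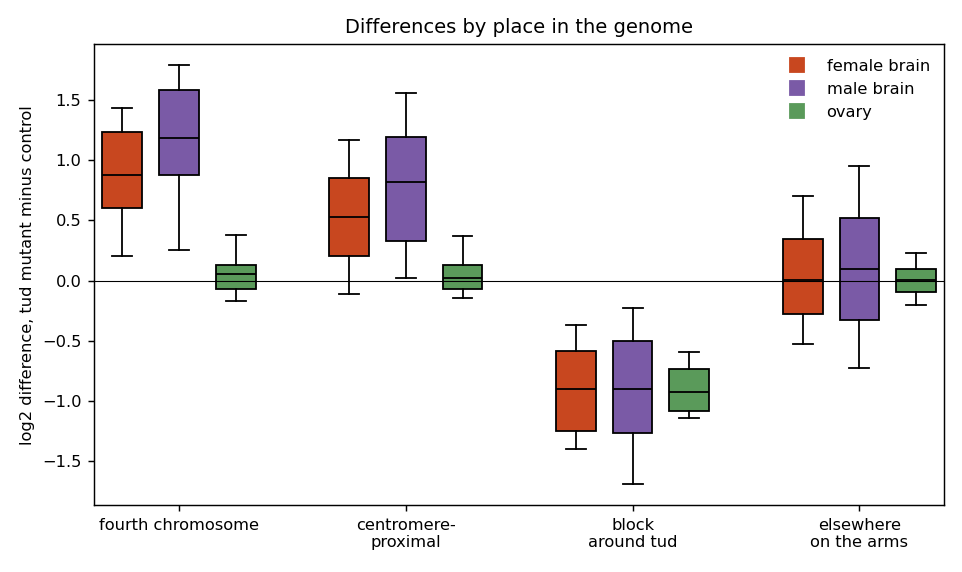
Differences between *tud* mutants and controls on the log2(FPKM + 1) scale by place in the genome and tissue. Boxes span the quartiles with the median as a line and whiskers reach the 10th and 90th percentiles over genes. In female brain the fourth chromosome (median 0.87) and the centromere-proximal genes (0.53) lie above the rest of the arms (0.01), while in the ovary their medians are 0.06 and 0.02.

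Male brains, which had no part in choosing these regions, showed medians of 1.18 on the fourth chromosome (95 genes) and 0.81 in the centromere-proximal regions (185 genes), and of 0.10 elsewhere. In ovaries the medians were 0.06 (72 genes), 0.02 (144 genes) and 0.00. The difference between the female brain and ovary changes was tested gene by gene over the 12 female libraries. On the fourth chromosome 2 of 93 genes passed, against 1.05% of all genes. Of these, 1 had a higher and 1 a lower change in brain. The median brain minus ovary difference was 0.82 there, 0.52 in the centromere-proximal regions (178 genes) and −0.02 elsewhere (9511 genes). At an unadjusted p under 0.05 (limma) were 54, 64 and 1870 of these genes. Among protein-coding genes with a span under 5 kb the median in female brain was 0.48 on the fourth chromosome (15 genes) and 0.46 near centromeres (61 genes), against −0.09 elsewhere (6266 genes). For spans of 5 to 20 kb the medians were 0.97 (49 genes), 0.50 (46 genes) and 0.16 (1906 genes), and for spans of 20 kb or more 0.83 (13 genes), 0.69 (40 genes) and 0.38 (843 genes). The genes of 15 heterochromatin proteins, a list added after seeing the data, had a median difference of 0.16, which was 0.10 without mutant replicate 2. Of these genes 6 were higher and 2 lower without overlap, against 16.5% and 15.4% of all genes tested, and none was DE.

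Span itself went with the difference over the whole table. The 899 genes that span 20 kb or more had a median of 0.40 and the 6360 genes under 5 kb one of −0.09, which were 0.28 and −0.03 without mutant replicate 2. The medians of the long genes were 0.34, 0.63 and 0.23 in mutant replicates 1 to 3 and 0.18, −0.06 and −0.11 in the controls. Those of the short genes were −0.05, −0.22 and −0.0046 in the mutants, lowest in replicate 2.

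The lists of genes described next were chosen with earlier results of these data known. Their counts stand beside 16.5% of all genes higher and 15.4% lower without overlap, and beside 0.17% of all genes DE. Genes of synaptic vesicle release, the machinery that docks and fuses vesicles at the presynaptic membrane, had a median difference of 0.87 over 24 genes. Of these 22 were higher, 13 without overlap, and none passed the threshold (lowest adjusted p = 0.161). *Syt1*, the calcium sensor of release, was at 160, 96.0 and 61.7 FPKM in the controls and at 291, 279 and 190 FPKM in the mutants (1.33, adjusted p = 0.17). *cpx*, the SNARE regulator complexin, was at 261, 166 and 96.3 FPKM and then at 469, 787 and 334 FPKM (1.62, adjusted p = 0.17). The controls themselves ranged widely for these genes, with replicate 3 lowest.

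Receptors for neurotransmitters gave a median of 0.47 over 37 genes, 34 of them higher and 13 without overlap, and ion channels one of 0.45 over 18 genes, 15 of them higher and 7 without overlap. Without mutant replicate 2 the median of the receptors was 0.28. The nicotinic receptor subunit gene *nAChRalpha5* was at 22.5, 11.3 and 5.18 FPKM in the controls and at 62.5, 40.04 and 42.8 FPKM in the mutants (2.00, adjusted p = 0.161). Its relative *nAChRbeta3* lay in the other direction, at 14.8, 14.1 and 24.0 FPKM and then at 6.27, 3.37 and 9.52 FPKM (−1.38, adjusted p = 0.163). Genes of transmitter synthesis and transport had a median of 0.50 over 15 genes, and 0.27 without mutant replicate 2. Markers of neurons had one of 1.02 over 6 genes, with every gene higher and 3 without overlap, and markers of glia one of 0.25 over 9 genes. In bulk tissue a larger share of neurons and more RNA of these genes per neuron cannot be told apart. Protein-coding genes elsewhere on the arms with a span of 20 kb or more had a median of 0.38, with 38.6% higher without overlap. The part of gene span in the medians of these lists was not tested.

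Neuropeptide precursors had a median of 0.43 over 38 genes. Of these 31 were higher, 16 without overlap, and the only one past the threshold was *Eh*, which was lower. *Ilp2*, an insulin-like peptide of the brain's insulin-producing cells, was at 778, 896 and 1288 FPKM in the controls and at 996, 1313 and 1482 FPKM in the mutants, with overlapping groups (0.37, adjusted p = 0.503). *Akh*, which encodes adipokinetic hormone and is made in the corpora cardiaca outside the brain, was at 103, 97.5 and 106 FPKM and then at 88.0, 20.04 and 65.6 FPKM (−1.04, adjusted p = 0.281). The list of insulin, Akh and nutrient signalling had a median of 0.13 over 20 genes, or 0.32 without mutant replicate 2, with *tobi* as its only DE gene.

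Genes of photoreceptors were, by the median of their list, higher in mutant replicates 1 and 3 and near the controls in replicate 2. Phototransduction turns absorbed light into an opening of TRP channels through rhodopsins, a G protein and a phospholipase, and takes place in the retina, next to the optic lobes of the brain. The 29 genes of this list had a median of 0.73, with 27 higher and 10 without overlap. By library the median was 1.24, 0.08 and 0.77 in mutant replicates 1 to 3 and between −0.07 and 0.04 in the controls. The main rhodopsin gene *ninaE* was at 1315, 1604 and 1452 FPKM in the controls and at 5337, 1429 and 3408 FPKM in the mutants (1.03, adjusted p = 0.288). *Rh5*, the rhodopsin of blue-sensitive cells, was at 18.8, 19.3 and 16.4 FPKM and then at 199, 40.9 and 89.6 FPKM (2.25, adjusted p = 0.161), and *chp*, a photoreceptor surface protein, at 13.9, 14.96 and 16.7 FPKM and then at 69.8, 37.3 and 55.5 FPKM (1.73, adjusted p = 0.0677).

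Without mutant replicate 2 the list's median was 0.99. Of its genes 22 were then higher without overlap, against 24.7% of all genes with that library left out. In that fit 6 genes of the list were DE, where 51 genes were DE in all. The 13 photoreceptor markers, most of which are also in the phototransduction list, were all higher, with a median of 1.03. The amount of retina left on the dissected brains was not measured, and its part in these values was not tested. *inaF-B* and *px*, which were DE with all libraries, had their lowest mutant value in replicate 2 as well, at 33.3 and 41.3 FPKM, but stayed above all controls.

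**Figure D5:**
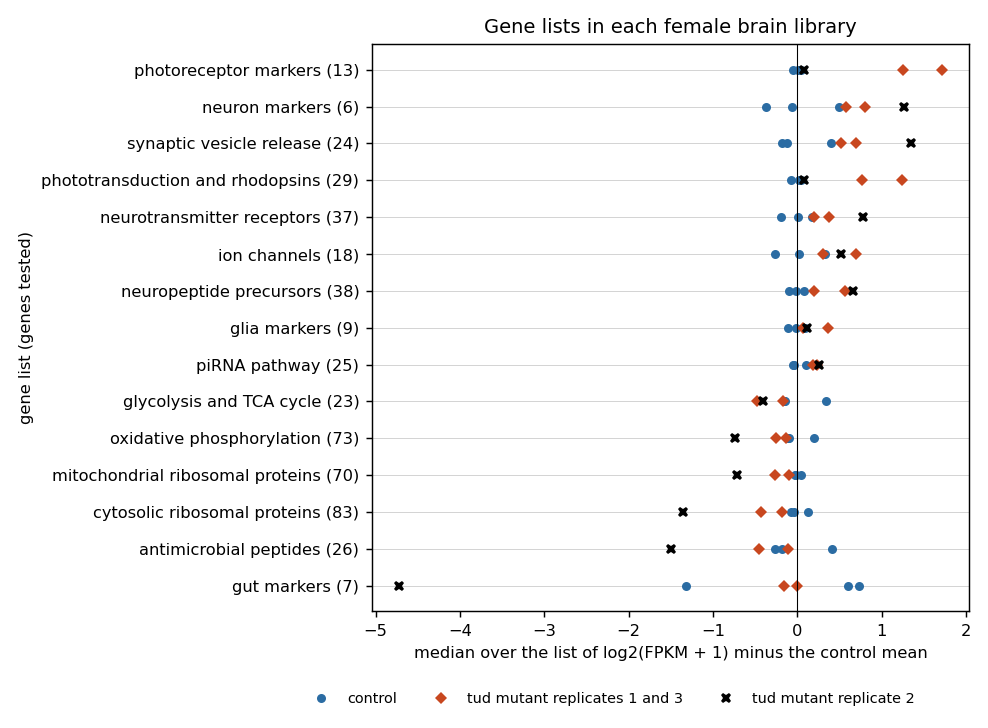
Median over the genes of each list of log2(FPKM + 1) minus the control mean, for each of the 6 female brain libraries, with circles for controls, diamonds for mutant replicates 1 and 3 and crosses for mutant replicate 2. Replicate 2 lies far below the others for gut markers (−4.72), antimicrobial peptides (−1.50) and cytosolic ribosomal proteins (−1.36), and at control level for photoreceptor markers (0.08).

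Cytosolic ribosomal protein genes showed a median of −0.64 over 83 genes, of which 78 were lower and 46 without overlap (lowest adjusted p = 0.163). By library the median was −0.18, −1.36 and −0.44 in the mutants and −0.07, −0.04 and 0.13 in the controls. *RpL8* was at 525, 441 and 912 FPKM in the controls and at 370, 105 and 266 FPKM in the mutants (−1.44, adjusted p = 0.195). Without mutant replicate 2 the median of the list was −0.28, with 66 genes lower and 46 without overlap (21.5% of all genes then). In male brain it was −0.91, with 77 of 82 genes lower.

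Mitochondrial ribosomal proteins had a median of −0.38 over 70 genes, 64 of them lower and 29 without overlap, and oxidative phosphorylation one of −0.38 over 73 genes, 61 of them lower and 26 without overlap. Without mutant replicate 2 each of these medians was −0.17. *ND-75*, the largest subunit of complex I, was at 65.4, 56.8 and 119 FPKM in the controls and at 32.7, 27.3 and 32.4 FPKM in the mutants (−1.28, adjusted p = 0.16). Enzymes of glycolysis and the TCA cycle differed by a median of −0.39 over 23 genes, 18 of them lower and 8 without overlap, which was −0.32 without replicate 2. *PyK*, pyruvate kinase, was at 485, 491 and 694 FPKM and then at 328, 297 and 349 FPKM (−0.76, adjusted p = 0.171), below the controls in every mutant library.

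Antimicrobial peptides and other immune effectors had a median of −0.59 over 26 genes, and one of −0.16 without mutant replicate 2. Of these genes 21 were lower and 4 were so without overlap, which is near the 15.4% of all genes tested. In male brain the median was 0.42, with 18 of 29 genes higher. *AttC*, an attacin, was at 86.6, 176 and 48.4 FPKM in the controls and at 40.8, 7.90 and 26.2 FPKM in the mutants (−2.08, adjusted p = 0.178). Gut markers, genes of digestive enzymes, were near 0 in replicate 2 of the mutants, where they summed to 3.396 FPKM, against 79.5 to 350 FPKM in the other female brain libraries. *Amy-d*, an amylase, was at 95.6, 22.2 and 87.2 FPKM in the controls and at 35.0, 0.523 and 40.4 FPKM in the mutants. Their median of −1.64 over 7 genes was −0.10 without that library.

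Markers of other tissues were detected as well. Fat body markers had a median of −0.10 over 11 genes, which without mutant replicate 2 was 0.39 with 10 of them higher, and muscle markers one of 0.00 over 12 genes. Haemocyte markers had a median of −0.43 over 9 genes, 3 of them lower without overlap, and one of −0.13 without that library. Of ovarian germline, follicle cell and testis markers, 4 of 9, 4 of 10 and 1 of 13 in the table passed the filter. Follicle cell markers summed to 60.3 FPKM in control replicate 3 and 40.5 FPKM in mutant replicate 1, against 2.05 to 5.05 FPKM in the other libraries. Fat body markers summed to 13117.5 FPKM in control replicate 3 and 12840 FPKM in mutant replicate 3, against 2791 to 6849 FPKM in the others. The source of these uneven levels was not tested. Trachea markers had a median of 0.21 over 3 genes. Cuticle markers had one of 0.21 over 4, neuroblast markers one of 0.02 over 3 and markers of the corpora allata and cardiaca one of −1.04 over 3, which without mutant replicate 2 were 0.37, 0.21 and −0.42. None of the genes in these lists was DE.

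Detoxification genes, which hold cytochromes P450 and transferases, had 2 DE genes of 110 tested, *Cyp6a17* and *Cyp9f3*, where 0.17% of all genes were DE. Their median was −0.02. Without mutant replicate 2 it turned to 0.18, and the list held 3 of the 51 DE genes of that fit. *Cyp6a2*, a P450 often raised in strains that resist insecticides, was at 31.7, 34.0 and 46.7 FPKM in the controls and at 9.61, 5.09 and 3.89 FPKM in the mutants (−2.48, adjusted p = 0.0568). The piRNA pathway had a median of 0.23 over 25 genes, with 9 higher and 3 lower without overlap, and the miRNA and siRNA machinery one of −0.02 over 13 genes. The circadian clock had a median of 0.35 over 13 genes, heat shock and stress genes one of 0.25 over 16 and eye pigment genes one of −0.20 over 17, which was −0.04 without mutant replicate 2. Genes of sex determination and dosage compensation, listed together with the yolk protein gene *Yp1*, had one of 0.68 over 8. Chemosensory receptors and binding proteins had a median of 0.08 over 56 genes, seminal fluid genes and serine proteases one of −0.09 over 37 (0.05 without mutant replicate 2), actins and tubulins one of −0.37 over 11, and a wider list of glial genes, which holds the 9 glial markers, one of 0.16 over 23. None of the genes in these last 10 lists was DE.

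Among short RNAs, 3 of 189 snoRNA genes tested were DE, 1 higher and 2 lower, where 0.17% of all genes were DE. The median of the snoRNA genes was −0.12, which turned to 0.39 without mutant replicate 2. The snRNA genes had a median of −0.55 over 22 genes, and −0.00 without that library. Of 56 microRNA hairpins tested, 3 were DE and the median was 0.38, which was 1.17 without mutant replicate 2 and ranged from −0.16 to 1.28 over fits that left out 1 library.

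Other protein-coding genes close to the threshold were *PPO2*, a prophenoloxidase of haemocytes, at 23.1, 14.3 and 26.9 FPKM in the controls and 4.01, 3.32 and 5.83 FPKM in the mutants (−2.04, adjusted p = 0.0677), *sty*, the Sprouty inhibitor of receptor tyrosine kinase signalling (1.47, adjusted p = 0.0658), and *Arms* (−1.03, adjusted p = 0.0658), which lies in the run around *tud*. *CG42764* (2.05) and *CG13074* (1.67) were higher and *Psf3*, a subunit of the GINS replication complex, was at 50.3, 44.4 and 43.2 FPKM and then at 91.8, 104 and 97.4 FPKM (1.07, adjusted p = 0.0677). In each of these genes the groups did not overlap.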

How the data were processed

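Per the study's methods and the submitters' processing notes, total RNA was depleted of rRNA and sequenced with stranded libraries, reads were aligned to dm6 with TopHat2 (2.0.13 in the notes) and FPKM were made with the Cufflinks tools (Cuffnorm 2.2.1). The deposited FPKM table was used as it stands. How the authors scaled libraries against each other is not given in the sources used here, and no counts were used. FPKM were tested as log2(FPKM + 1) with limma 3.58.1 in R 4.3.3 (trend on the mean level, two-sided, Benjamini-Hochberg adjustment), for genes with a mean of at least 1 FPKM over the 6 libraries. Male brain and ovary libraries were fitted in the same way on their own, and female and male differences were compared by an interaction over the 12 brain libraries. All adjusted p in the text are from these limma fits. Positions are those of dm6, from Ensembl release 115. Small RNA genes below 300 nucleotides were kept unless stated. The study calls the replicates biological, and p-values cover the spread between these 3 libraries per group only. Genes were named if they belong to the genotype or cross, if the study names them, if DE, if highest or most different in a list, or as the 5 rises and 5 falls with the largest moderated t among protein-coding genes short of the threshold. Other genes named in the run around *tud*, on the fourth chromosome and near centromeres, and *chp*, were chosen after their values were seen. The members of the comparison and the gene lists were chosen with earlier results of these data known. Alternatives were other pseudocounts, filters, scalings and moderation, a replicate block, library weights and leaving out each library.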

Additional observations from a re-analysis of the deposited data

Results flagged for a closer look

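The female and male differences were unlike each other for 2 genes, both of short RNAs (limma interaction over the 12 brain libraries). *snoRNA:U31:54Ed* (2R, 17702411 to 17702477 in dm6, 67 nucleotides) was at 197, 298 and 275 FPKM in control females and at 0 in mutant females and in all 6 male libraries, so that its female minus male difference was −7.99 (standard error 0.26, adjusted p = 6.29e-08). *mir-4956* (X, 7085737 to 7085853, 117 nucleotides) was at 44.2, 87.1 and 73.7 FPKM in control males and at 0 in mutant males and in all 6 female libraries, a female minus male difference of 6.06 (standard error 0.34, adjusted p = 1.09e-05). Each is thus listed above 0 in 3 libraries of the 12, those of 1 control group, and a listed 0 need not mean that the RNA was absent. Both were called in 12 of 12 fits that left out a library. These fits could hardly change the calls, since every library outside that control group is listed at 0.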

How the results depend on the processing

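All 18 DE genes kept their direction under every alternative in which they were tested. The number of DE genes was 18 and became 3492 with library weights, whose estimation did not converge, 36 when the 12 brain libraries were fitted together and 11 at an adjusted p of 0.01. It ranged from 11 (without control replicate 1 or 2) to 51 (without mutant replicate 2) over fits that left out 1 library. It was between 12 and 24 under the other alternatives. With the replicate block 18 genes were DE, 14 of the 18 among them. Same-numbered controls and mutants had correlated deviations of 0.04, 0.06 and 0.08, each the highest for its number, but the numbers are not given as pairs. Genes whose female and male differences were unlike numbered 2, and 0 without small RNAs, an alternative added after seeing the data, and 2 to 7 with a library left out (4 without control female replicate 2, 7 without control male replicate 1). The run around *tud* had a median of −0.97 with a pseudocount of 0.1, −1.05 with a filter of 5 FPKM and −0.98 with quantile normalization, and −1.02 to −0.81 with a library left out. The centromere-proximal median was 0.58, 0.58 and 0.49 under the same settings, 0.46 with library weights, and 0.40 to 0.62 with a library left out. With quantile normalization the differences of *ATPsynbeta* (0.31), *RpS3A* (0.27) and *hid* (−0.017) had the opposite sign. With a library left out these genes ranged from −0.098 to 0.042, −0.26 to 0.16 and −0.10 to 0.37, none of them DE. The causes were not tested. Only 3 libraries per group, FPKM without counts and zero values of short RNAs limit the precision.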
